A study of Mus musculus with 2 samples.

Results

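The genes described are the 84 nuclear protein-coding genes whose symbols mark them as subunits, or close relatives of subunits, of the mitochondrial respiratory chain and the ATP synthase, out of 21911 protein-coding genes of GENCODE vM21 on chromosomes 1 to 19, X and Y. They were chosen by symbol and not by value (Nduf with a, b, c, s or v and a digit, Uqcr, Cox4 to Cox8, Sdha to Sdhd, and Atp5). Complex I has 37 of them, complex II 4, complex III 8, complex IV 18 and complex V, the ATP synthase, 17. The subunits encoded by the mitochondrial genome are outside the set, and so are nuclear subunits with other symbols, such as Cyc1 of complex III and Ndufab1 of complex I. Open chromatin was read by DNase-seq. Here the enzyme DNase I cuts DNA that nucleosomes leave bare, and the ends of the cuts are sequenced. The tissue was whole testis of male B6CASTF1/J mice, the offspring of a cross between a C57BL/6 and a castaneus-derived strain, aged 14 days, with no treatment and no engineered allele named. The labels give 1 group of 2 libraries, numbered as biological replicates. Replicate 1 is labelled as tissue of 3 males, replicate 2 carries no number of animals, and both carry 1 donor label, so the spread between them may be technical in part. The 2 parental alleles are not separated in the files.

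Complexes I to IV pass electrons from NADH and succinate to oxygen and, except for complex II, pump protons across the inner mitochondrial membrane, and complex V lets the protons back to make ATP. Most subunits are used in every tissue, but cytochrome c oxidase (complex IV) has several subunits with another gene used in particular tissues. In mammals Cox6b2, Cox7b2 and Cox8c are known as testis forms, Cox6a2, Cox7a1 and Cox8b as heart and skeletal muscle forms, and Cox4i2 as a lung form that responds to oxygen. Ndufa4l2 is a relative of Ndufa4 that is induced by hypoxia. At this age the first wave of germ cells is in meiosis and spermatids have not formed. The comparisons below set the complexes beside each other and each tissue form beside its general paralog. Because there is 1 group, they are descriptions over 2 libraries without a test.

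The promoters on which the comparison of testis forms and general forms turns are printed below, as the 150 bases before the annotated 5′ end of each gene, read 5′ to 3′ on the strand of the gene from the RefSeq copy of the GRCm38.p6 assembly (mm10). Capitals mark bases covered by the authors' footprints, short stretches shielded from DNase I inside open chromatin, in both libraries. The pieces are chr7:4753095-4753244 (minus strand) for Cox6b2 and chr7:30626152-30626301 (minus strand) for its paralog Cox6b1. They are chr5:71548206-71548355 (minus) for Cox7b2 and chrX:106015550-106015699 (plus) for Cox7b. They are chr12:102899166-102899315 (plus) for Cox8c and chr19:7217617-7217766 (minus) for Cox8a. Of the 150 bases, 73 were footprinted in both libraries at Cox6b2 and 19 at Cox6b1, 42 at Cox7b2 and 26 at Cox7b, and 12 at Cox8c and 25 at Cox8a.
Cox6b2: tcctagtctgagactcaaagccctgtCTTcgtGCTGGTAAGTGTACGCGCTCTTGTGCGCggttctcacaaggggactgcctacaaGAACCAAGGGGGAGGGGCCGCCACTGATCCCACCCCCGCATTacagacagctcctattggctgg
Cox6b1: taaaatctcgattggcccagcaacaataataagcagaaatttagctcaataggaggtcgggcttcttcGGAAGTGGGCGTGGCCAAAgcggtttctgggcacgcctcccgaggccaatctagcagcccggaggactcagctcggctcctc
Cox7b2: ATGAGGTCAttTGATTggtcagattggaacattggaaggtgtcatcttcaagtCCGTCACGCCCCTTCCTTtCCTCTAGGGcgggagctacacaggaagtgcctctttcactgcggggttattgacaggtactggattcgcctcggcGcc
Cox7b: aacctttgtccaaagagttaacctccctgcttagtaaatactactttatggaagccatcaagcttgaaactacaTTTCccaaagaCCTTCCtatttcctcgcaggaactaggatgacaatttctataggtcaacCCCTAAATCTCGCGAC
Cox8c: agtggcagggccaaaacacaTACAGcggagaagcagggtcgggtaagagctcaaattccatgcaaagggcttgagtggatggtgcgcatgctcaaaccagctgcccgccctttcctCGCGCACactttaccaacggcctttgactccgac
Cox8a: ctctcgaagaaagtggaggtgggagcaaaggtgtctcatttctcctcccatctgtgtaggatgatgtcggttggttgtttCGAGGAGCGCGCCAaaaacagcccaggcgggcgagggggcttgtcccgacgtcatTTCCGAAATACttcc

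The muscle form Cox6a2 is shown in the same way for contrast, because its promoter held no peak and no footprint. The piece is chr7:128206388-128206537 (minus strand). Here capitals mark matches to consensus words bound by muscle regulators, the E-box CAGCTG at positions -85 to -80 and the MEF2 word (CTATTT, any base and TAG), on the other strand, at -28 to -19, with the annotated start at position 0. The muscle E-box is not particular to this promoter, since the Cox8c promoter printed above holds it too, unmarked, at -53 to -48.
Cox6a2: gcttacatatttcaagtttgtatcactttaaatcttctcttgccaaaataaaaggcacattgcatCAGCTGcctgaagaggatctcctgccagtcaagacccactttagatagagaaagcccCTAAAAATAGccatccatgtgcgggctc

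Nearly all promoters of the set were open. A promoter was called open where a peak of the authors' longer list lay within 1000 bp of an annotated transcript start in both libraries. This held for 81 of the 84 genes (96.4%), against 68.7% of all protein-coding genes (15059 of 21911). In replicate 1 by itself 81 genes of the set and 70.2% of all genes had such a peak, and in replicate 2 by itself 81 and 70.5%. In the authors' shorter list 80 of the 84 were open in both libraries, against 63.4% of all genes. No gene of the set was open in a single library, and 3 had no peak in either, Cox4i2, Cox6a2 and Cox8b, which are all tissue forms of complex IV. The promoter value, the highest signal the authors gave to a peak in the windows of a gene, had a median over the 84 genes of 6.97 in replicate 1 and 6.83 in replicate 2 (6.90 ± 0.094, SD, n = 2). Over all protein-coding genes the medians were 1.43 and 1.30 (1.36 ± 0.089). The value is linear and scaled per library, and its unit is unnamed in the sources. Of the 84 genes, 79 lay above the median of all genes and 53 (63.1%) above its 75th percentile of 6.05. In whole tissue, fewer cells with an open promoter and a less accessible promoter in each cell cannot be told apart.

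Values were close in the 2 libraries. Every one of the 81 open promoters differed by less than 1.5 times between libraries, as did 95.4% of all open promoters. The log2 ratio of replicate 2 over replicate 1 had a median of -0.07 over the set and of -0.07 over all open genes, and 36 promoters were higher in replicate 2 and 45 in replicate 1. The 5 genes that differed most were Ndufa10 at -0.49, Ndufb6 at -0.46, Ndufc2 at -0.43, Atp5mpl at -0.43 and Ndufc1 at -0.41, all lower in replicate 2. Apart from Atp5mpl, a small subunit of the ATP synthase, they are accessory subunits of complex I. The highest peaks were compact and close to the start. They were 200 bp wide at the median in both libraries, and their midpoints lay within 100 bp of an annotated start for 72 of 81 genes in replicate 1 and 70 in replicate 2. All 81 held footprints in both libraries, between 2 and 9 per peak in replicate 1 and between 2 and 8 in replicate 2, with a median of 5 in each. In 78 genes the highest peaks of the 2 libraries overlapped. At Cox7a2l, Uqcr10 and Uqcrh different neighbouring peaks led in the 2 libraries. Peak width, distance to the start, footprints and overlap were not counted over all open promoters. These traits are therefore not shown to be particular to the set. Starts inside a gene mattered for few. With the 5′ end alone, 79 of the 84 were open, Cox7a2l had no peak, and Atp5d had 1.29 and 1.20 in place of 6.38 and 7.51. The share of all genes open by the 5′ end alone was not computed.

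The 5 complexes differed in their middle values, and complex IV was lowest. The median promoter value was 9.18 and 7.51 in replicates 1 and 2 for complex V (8.34 ± 1.18, SD, n = 2) and 8.40 and 7.65 for complex II (8.02 ± 0.53). It was 7.05 and 6.96 for complex I (7.005 ± 0.062), 6.55 and 6.10 for complex III (6.33 ± 0.32) and 4.27 and 4.72 for complex IV (4.50 ± 0.32). Complexes V and II changed places between the libraries, whereas each later neighbour in this order was lower in both. The low middle of complex IV followed its tissue forms. Its 11 general forms alone had medians of 7.57 and 6.54 (7.06 ± 0.73), which overlap those of complexes I and III. Above that percentile of all genes lay 13 of 17 genes of complex V, all 4 of complex II, 24 of 37 of complex I, 5 of 8 of complex III and 7 of 18 of complex IV. Where a peak was counted for the gene with the nearest start alone, the medians were 7.04 for complex V, 5.97 for complex I and 4.93 for complex III, and complex II stood highest at 7.70.

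**Figure D1:**
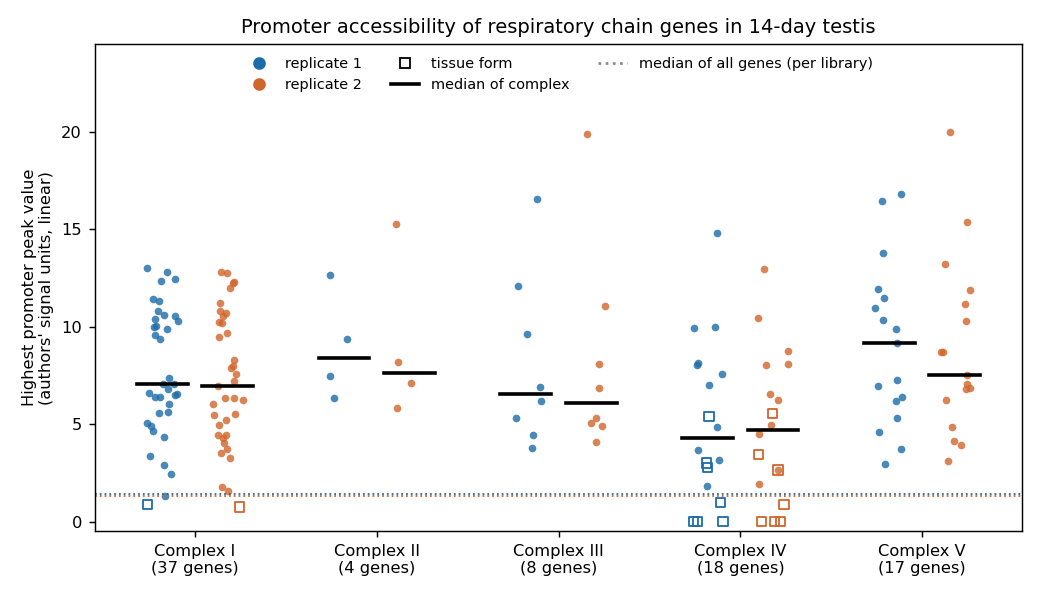
Highest promoter peak value (vertical axis, the authors' linear signal units) of each of the 84 genes by complex, with replicate 1 in blue and replicate 2 in orange, open squares for tissue forms, black bars for the median of a complex and dotted lines for the median of all genes in each library. All 4 genes of complex II lie above 5, whereas complex IV reaches down to 0 at Cox4i2, Cox6a2 and Cox8b.

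The plot of values by complex shows how wide each complex was. Within complex I the mean value of the core and accessory subunits ran between 1.45 at Ndufb11 and 12.9 at Ndufa6, and Ndufa4l2, the hypoxia-induced relative of Ndufa4, stood below them at 0.808. Ndufa4, named for complex I, is now known as a subunit of complex IV and is counted here by its symbol. The 7 core subunits, which carry out the electron transfer, had medians of 7.08 and 8.27 (7.67 ± 0.84), and the 28 accessory subunits, which surround them, 7.20 and 7.09 (7.15 ± 0.083). The core median was lower in replicate 1 and higher in replicate 2, so both groups overlap. The highest was the accessory subunit Ndufa6 with 13.0 and 12.8. Ndufa13, an accessory subunit also known as a cell death regulator, had 12.5 and 12.8, but the midpoint of this peak lay at -762 bp from its start in replicate 1, in the windows of Tssk6 and Yjefn3 too, and within 500 bp its values were 0.952 and 0.921. Ndufb5, of the membrane arm, had 11.3 and 12.3 in a peak shared with Mrpl47. At the low end, Ndufa4l2 had 0.866 and 0.751, Ndufb11 1.32 and 1.57, and Ndufc2 2.43 and 1.80.

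Complex II, the only one that is also an enzyme of the citric acid cycle, was high in each of its 4 genes. Sdhb, the iron-sulfur subunit, had 12.7 and 15.3, and Sdha, the flavoprotein, 9.35 and 8.18. The membrane anchors Sdhc and Sdhd had 7.45 and 5.83, and 6.37 and 7.12. The peak of Sdha also lay in the window of Ccdc127 and that of Sdhd in the window of Timm8b. In complex III the highest was Uqcrq, a small ubiquinone-binding subunit, with 16.6 and 19.9. Its peak, chr11:53430901-53431260 in both libraries, was centred 250 bp upstream of its start and nearer to that of Gdf9, an oocyte growth factor, so that Uqcrq had no peak of its own when peaks went to the nearest start. Uqcrfs1, the Rieske iron-sulfur protein, had 12.1 and 11.1, and the core protein Uqcrc1 9.63 and 8.08. At the low end were the other core protein, Uqcrc2, with 4.47 and 4.10, Uqcrb with 3.79 and 4.92, and Uqcr11 with 6.20 and 5.04. Uqcrc2 and Uqcrb changed places between the libraries. Cyc1, a subunit of complex III outside the symbol rule, had 3.65 and 3.96, below all genes counted here for complex III in both libraries.

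In complex V the highest promoter of the whole set was that of Atp5g1, 1 of 3 genes for the same c subunit of the proton-driven rotor. It had 16.8 and 19.98, above 98.5% of all genes. The other c subunit genes were lower, Atp5g2 with 13.8 and 13.2 and Atp5g3 with 7.27 and 6.26. The Atp5g2 peak lay at a start inside the gene, and the windows of its 5′ end alone gave 2.99 and 3.37. Atp5b, the catalytic beta subunit, had 16.5 and 15.4, while Atp5a1, the alpha subunit that alternates with it in the head of the enzyme, had 4.62 and 4.87. The alpha and beta genes, whose proteins form the head together, thus differed in both libraries by more than the spread between libraries. The 5 genes of the catalytic F1 head had medians of 9.89 and 8.71 (9.30 ± 0.84). The other 12 Atp5 genes, all counted by symbol as the stalk and membrane part, had 8.23 and 6.95 (7.59 ± 0.91). The lowest were Atp5l with 2.96 and 3.10, Atp5j2 with 3.72 and 3.95, and Atp5k with 5.30 and 4.12, which encode small membrane subunits.

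Within complex IV the general form Cox6a1 was highest with 14.8 and 13.0, followed by Cox5b with 9.96 and 10.4 and Cox6c with 9.92 and 8.01. The pairs of forms were unlike each other. For 2 of the 3 testis forms the promoter value was above that of the general paralog. Cox6b2, which encodes a subunit on the side where cytochrome c docks, had 5.41 in replicate 1 and 5.56 in replicate 2, against 3.16 and 2.67 for Cox6b1. Cox6b2 was higher in both libraries, by 2.57 ± 0.46 units or 1.90 ± 0.26 times (SD, n = 2). Its peak, chr7:4753021-4753200 in replicate 1, spans the 5′ end of the gene, which lies on chr7:4751792-4753094 on the minus strand. Cox7b2 had 3.01 and 3.46, against 1.83 and 1.96 for Cox7b, higher by 1.34 ± 0.23 units or 1.71 ± 0.089 times. Its peak, chr5:71548181-71548380 in both libraries, lies across the single annotated start of the gene (chr5:71442824-71548205, minus strand).

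The third testis form was low. Cox8c (chr12:102899316-102900526, plus strand) had 0.984 and 0.880, against 8.03 and 8.08 for Cox8a, a difference of -7.12 ± 0.11 units. The Cox8c values were 0.116 ± 0.0097 times those of Cox8a, and below the median of all genes in both libraries. The peak nevertheless held footprints, 4 in replicate 1 and 5 in replicate 2. The values of the low peak are written as 183 and 233 of the smallest steps of each library. If every step were 1 independent event, counting error would be 7.39% and 6.55% of the value, compared with 3.15% and 2.6% for Cox6b2.

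**Figure D2:**
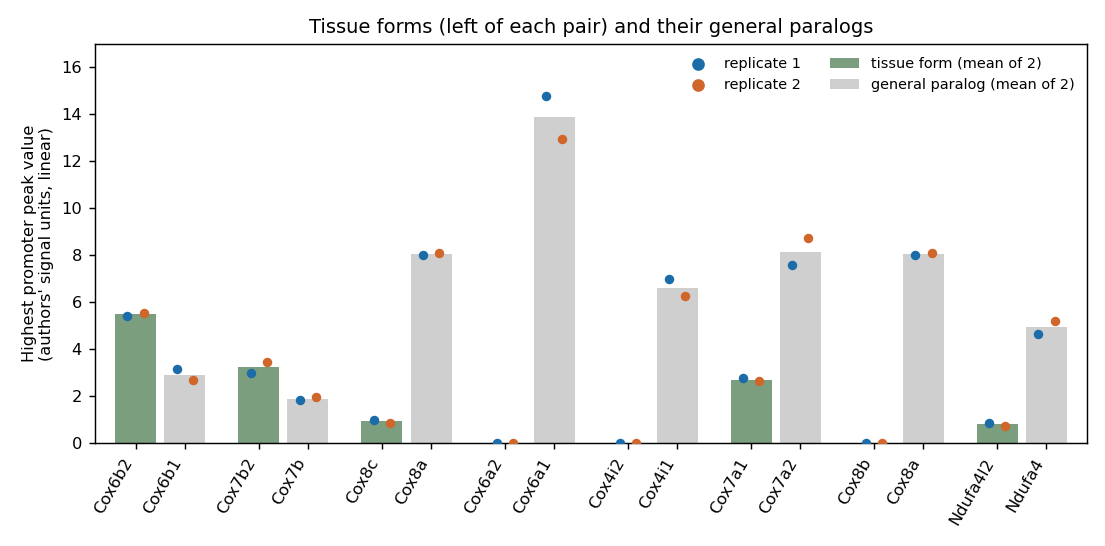
Highest promoter peak value (vertical axis, the authors' linear signal units) of each tissue form, left in green, and its general paralog, right in grey, with bars for the mean of the 2 libraries and points for replicate 1 (blue) and replicate 2 (orange). Cox6b2 and Cox7b2 stand above their paralogs in both libraries, the other 6 forms below theirs, and Cox6a2, Cox4i2 and Cox8b have no peak.

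The plot of pairs shows the opposite order for the forms of other tissues. Cox6a2 had 0 in both libraries, against 14.8 and 13.0 for Cox6a1, the largest difference of the 8 pairs. Cox8b likewise had 0, against 8.03 and 8.08 for Cox8a, and Cox4i2 had 0, against 6.995 and 6.25 for Cox4i1. The windows of these 3 genes held no base below the limit of 0.05 in the authors' cut rate track of false discovery rates (FDR) in either library. This adds little to the lack of a peak. Of the 6140 genes without a peak in either library, 202 had such bases in a library. The nearest peaks of the 3 genes lay outside their windows. For Cox6a2 the nearest lay 2004 bp upstream by its midpoint, with values of 0.812 and 0.604. For Cox8b it lay 2984 and 2968 bp upstream, with 1.03 and 0.570. For Cox4i2 it lay 11532 bp upstream in replicate 1 (1.19) and 5114 bp downstream, inside the gene, in replicate 2 (0.404).

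Not every muscle form was closed. Cox7a1 had a peak across its start with 2.77 and 2.65, against 7.57 and 8.75 for Cox7a2, a ratio of 0.334 ± 0.045. Ndufa4l2 had a peak centred at -478 bp from its start with 0.866 and 0.751, against 4.67 and 5.22 for Ndufa4, whose peak lay 6 bp from its start. The shorter peak list held the Ndufa4l2 peak in replicate 1 alone. With windows of 2500 bp a further peak counted for Ndufa4l2, its value was 4.47 ± 1.12, and the difference from Ndufa4 was -0.47 ± 1.51 units, within the spread between libraries. Among the 6 muscle markers, Acta1, Mb, Myh6 and Myh7 had no peak, Tnnt3 had 0.435 in replicate 1 alone, and Ckm had 3.73 and 3.35 in a peak shared with Klc3.

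As a group, the 8 tissue forms had a median promoter value of 0.925 and 0.815 (0.870 ± 0.077, SD, n = 2), against 7.32 and 7.08 (7.20 ± 0.17) for the 76 general forms. Open in both libraries were 5 of the 8 tissue forms (62.5%) and 76 of the 76 general forms, against 68.7% of all protein-coding genes. By this count the tissue forms were near the share of all genes. The groups overlapped, since Cox6b2 had a higher mean value than 21 of the 76 general forms. The promoters also differed in base composition, which the choice of genes did not use. In windows of 300 bases around the start (250 before it and 50 from it on), the observed over expected number of CpG pairs had a median of 0.368 in tissue forms and 0.838 in general forms, with 0.605 over all genes. It was 0.432 at Cox6b2, 0.564 at Cox7b2 and 0.460 at Cox8c, and lower at the muscle forms Cox7a1 (0.304), Cox6a2 (0.140) and Cox8b (0.115). Ndufa4l2 had 0.213 and Cox4i2 0.538. In 4 of the 8 tissue forms the ratio was below the lowest general form, Sdhb at 0.360, which had a high promoter value all the same.

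**Figure D3:**
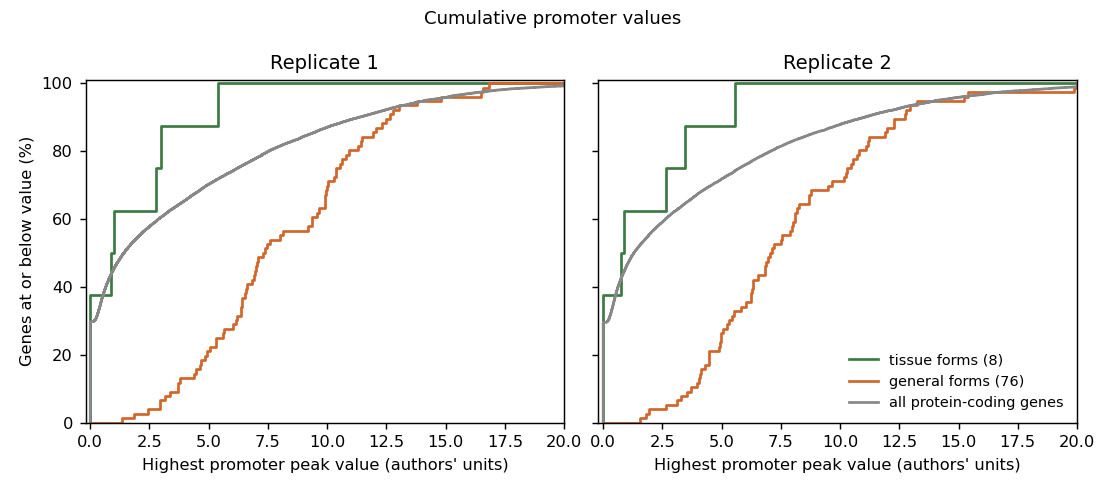
Share of genes at or below a given highest promoter peak value (horizontal axis, the authors' linear signal units, drawn up to 20) in replicate 1 (left) and replicate 2 (right) for the 8 tissue forms (green), the 76 general forms (orange) and all protein-coding genes (grey). The curve of the general forms begins above 1 in both libraries, whereas 3 of the 8 tissue forms are at 0.

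The cumulative plot shows that no general form lacked a peak, while the curve of all genes starts well above the origin. By the mean of both libraries the 2 lowest general forms were on the X chromosome. Ndufb11, an accessory subunit of complex I, had 1.32 and 1.57 and was the lowest of the 76. Its peak was shared with Rbm10, and Ndufb11 had no peak with peaks given to the nearest start. Cox7b, with 1.83 and 1.96, was the second lowest, although in replicate 2 the autosomal Ndufc2 was below it with 1.80. Ndufa1, another accessory subunit, had 2.93 and 3.28 and was the sixth, in a peak shared with Rnf113a1 (1.59 ± 1.89 with peaks given to the nearest start). The 3 together had a median of 1.89 ± 0.090, against 7.33 for the 73 autosomal general forms. All 948 protein-coding genes on X had a median of 0.373 ± 0.016 and 60.3% were open, against 68.7% of all genes. Males carry 1 copy of X for each 2 of an autosome, and the values were not adjusted for this. The higher value of Cox7b2 (chromosome 5) than of Cox7b is therefore a comparison between an autosome and X. Why the values on X were lower was not tested.

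Many of these peaks also lay in the window of a neighbour. The highest peak lay in the promoter window of another protein-coding gene in 30 of the 81 open genes (37%), against 18.7% of all open genes. The highest of these were Uqcrq (with Gdf9), Ndufa13 (with Tssk6 and Yjefn3), Ndufb5 (with Mrpl47, a mitochondrial ribosomal protein), Ndufa8 (with Morn5), Ndufa7 (with Rps28, a cytosolic ribosomal protein) and Atp5f1 (with Wdr77). Atp5j, of the stalk of the ATP synthase, shared its peak of 6.17 and 6.85 with Gabpa, which encodes the DNA-binding subunit of the ETS factor GABP, itself a known regulator of respiratory genes. When each peak went to the gene with the nearest start, 72 of the 84 were open in both libraries and 10 had no peak. These were the 3 closed tissue forms and Atp5f1, Ndufa2, Ndufb3, Ndufb11, Ndufs6, Sdhd and Uqcrq. The share of all protein-coding genes open by the nearest start was not computed, so the 72 has no background beside it.

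The windows of 300 bases were searched on both strands for consensus words of factors known from respiratory gene promoters. Nuclear respiratory factor 1 binds GCGCA, any base and GCGC, ETS factors such as GABP bind CCGGAAG and YY1 binds AAGATGGC. The NRF1 word was in 15 of the 84 promoters (17.9%), against 10.1% of the 15059 open promoters and 6.98% of all. Of its 20 matches, 19 (95%) overlapped a footprint in both libraries, close to the 90.6% over all open promoters. It is shown here at Sdha, which had 3 matches, all footprinted, and at Uqcrc1, which had 1 match with a footprint and 1 without. Capitals mark the match, and the number after each name is the position of its first base, with the annotated start at 0. The Sdha sites are chr13:74350319-74350348, chr13:74350276-74350305 and chr13:74350231-74350260 on the minus strand, and the Uqcrc1 sites chr9:108936668-108936697 and chr9:108936643-108936672 on the plus strand, the last of which had no footprint in either library.
Sdha at -58: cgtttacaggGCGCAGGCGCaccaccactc
Sdha at -15: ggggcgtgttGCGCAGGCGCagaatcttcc
Sdha at 30: gcgactcggtGCGCAAGCGCagtctgtcgc
Uqcrc1 at -36: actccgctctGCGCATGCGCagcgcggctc
Uqcrc1 at -61: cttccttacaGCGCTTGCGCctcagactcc

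The 15 genes with the NRF1 word had a median promoter value of 9.56 in replicate 1 and 8.18 in replicate 2, against 6.76 and 6.34 for the 66 open genes without it. They are Ndufa5, Ndufa8, Ndufa11, Ndufb4, Ndufs5 and Ndufs6 of complex I, Sdha and Sdhd of complex II, Uqcrc1 of complex III, Cox6a1 of complex IV and Atp5g2, Atp5g3, Atp5h, Atp5k and Atp5mpl of complex V. The ETS word was in 18 promoters (21.4%), against 16.7% of open promoters and 12% of all, and 9 of its 22 matches overlapped a footprint in both libraries (40.9%, against 41.8% over open promoters). Genes with the ETS word had medians of 6.64 and 6.98, against 7.27 and 6.87 without. An SP word (GGGCGG) was in fewer of these promoters than of others, 40.5% against 65.1% of open promoters and 47.9% of all. The word for estrogen-related receptors (TCAAGGTCA) was in 2 promoters, Atp5g3 and Sdhd (2.38%), against 0.292% of open promoters. The remaining words were no more than a few genes apart. The set against open promoters held 4.76% and 3.47% for a CRE (TGACGTCA), 2.38% and 4.42% for E2F (TTCCCGCC), and 10.7% and 10.2% for an E-box (CACGTG). It held 3.57% and 3.76% for MYB (TAACGG), 9.52% and 6.26% for the box with the letters TATAAA, and 14.3% and 15.4% for the muscle E-box. The MEF2 word was in 1.19% and 0.292%, and the RFX word in none of the set and 0.624%. These shares of the set include its closed genes, and its only MEF2 match was at Cox6a2, which had no peak. In the 81 open genes of the set the share was 0 for MEF2, 8.64% for TATAAA, 12.3% for the muscle E-box and 9.88% for the E-box CACGTG. None of these differences was tested.

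**Figure D4:**
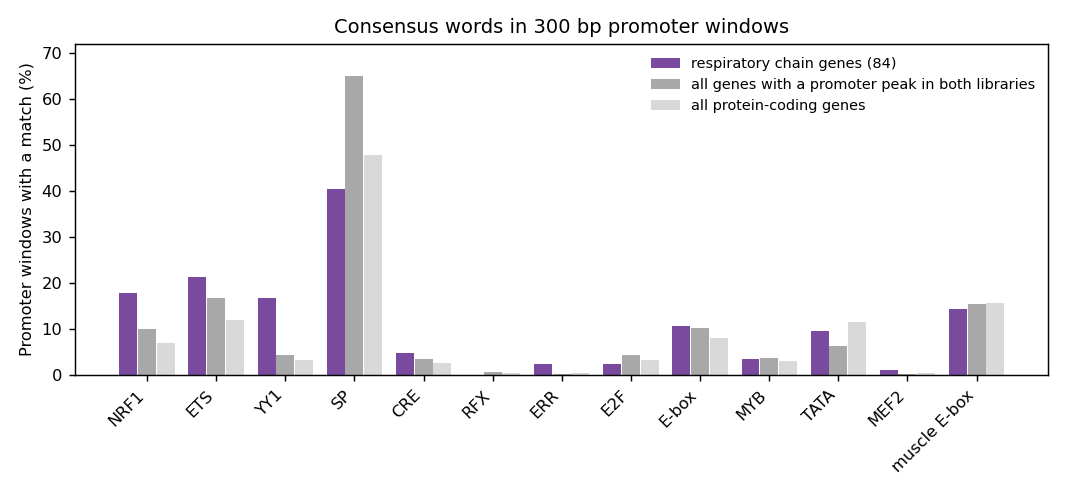
Share of 300-base promoter windows (vertical axis, percent) that hold each of 13 consensus words (horizontal axis) in the 84 respiratory chain genes (purple), in all genes open in both libraries (dark grey) and in all protein-coding genes (light grey). The purple bar is above both others for NRF1 (17.9%), ETS (21.4%) and YY1 (16.7%) and below both for SP (40.5%). By fewer percentage points it is also above both for CRE, ERR, E-box and MEF2, and below both for E2F, RFX and muscle E-box.

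The plot of word shares shows the YY1 word as well. It was in 14 promoters (16.7%), against 4.38% of open promoters and 3.35% of all. With the windows set on the 5′ end of each gene, it was in 9.52% of the set and 3.73% of open promoters. Of the 14 matches, 12 began at or after the start, between positions 2 and 36, and 11 held the whole annotated start codon. The word itself contains the letters of a start codon. Such matches are shown for Ndufs7 (chr10:80249462-80249491, plus strand), Ndufs4 (chr13:114388041-114388070, minus strand), Uqcrc1 (chr9:108936705-108936734, plus strand) and Ndufa4l2 (chr10:127514968-127514997, plus strand). The match is in capitals and holds the start codon atg in each.
Ndufs7: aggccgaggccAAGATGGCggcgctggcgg
Ndufs4: ttgcctacaggAAGATGGCggcggtctcaa
Uqcrc1: acggaagttagAAGATGGCggcgtccgcag
Ndufa4l2: gacactgggacAAGATGGCaggaactagtc

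Of these 4 matches, that of Ndufs7, a core subunit of complex I, overlapped a footprint in both libraries, and those of Ndufs4, Uqcrc1 and Ndufa4l2 in neither. Over all 14 the share with a footprint in both was 28.6%, against 42.7% over open promoters. Together, 40 of the 84 promoters (47.6%) held at least 1 of the NRF1, ETS and YY1 words, against 27.8% of open promoters and 20% of all. The tissue forms had neither the NRF1 nor the ETS word, and 1 of 8, Ndufa4l2, had the YY1 word. Within the printed Cox7b2 promoter an SP word lies at -72 to -67, and a footprint covers part of it in both libraries. At Cox8c an SP word at -46 to -41 and a muscle E-box at -53 to -48 overlap none. Among the members 1 E2F match and 1 ETS match overlapped an SP match.

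**Figure D5:**
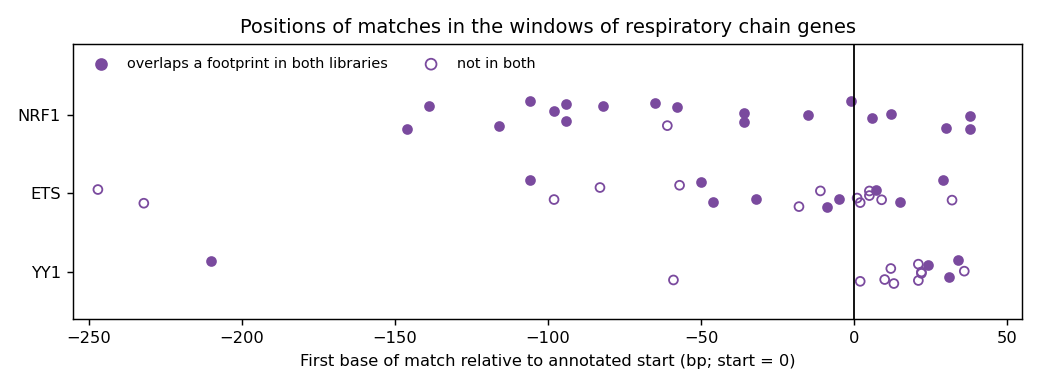
Position of each NRF1, ETS and YY1 match in the 84 promoter windows, as the distance in bp of its first base from the annotated start (0), with filled circles where a footprint overlaps it in both libraries and open circles where not. YY1 matches crowd just after the start, 12 of 14, whereas 15 of 20 NRF1 matches begin upstream and 19 of the 20 are filled.

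The plot of positions shows the 3 words in different places. The first base of the NRF1 matches had a median position of -59.5, that of the ETS matches -10 and that of the YY1 matches 21. Footprints mark protection from DNase I and do not name the bound protein, and a word without a footprint says nothing of the factor.

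Nearly all genes of the pathway lists were open as well. These lists hold 74 genes: electron carriers and subunits outside the symbol rule, assembly factors, regulators and testis forms of energy enzymes. Of the 74, 72 were open in both libraries, against 68.7% of all protein-coding genes. Sdhaf1, an assembly factor of complex II, had no peak, and Ppargc1a, the coactivator PGC-1 alpha, had 0.623 in replicate 2 alone. Of the electron carriers, Cycs, the somatic cytochrome c, had 19.3 and 20.6, above every gene of the set, followed by Etfa with 11.5 and 12.5 and Etfdh with 9.05 and 11.3, of the electron transfer flavoprotein path. The testis form of cytochrome c, Cyct, had 1.01 and 1.18. Of the 49 assembly factors, 48 were open, with a median of 7.42 and 6.81 (7.12 ± 0.44). The highest for each complex were Foxred1 (16.0 and 16.5) for complex I, Sdhaf3 (7.42 and 7.52) for complex II, Bcs1l (15.4 and 18.9) for complex III, Cox18 (13.9 and 15.8) for complex IV and Atpaf2 (18.03 and 16.9) for complex V.

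Of the 11 regulators, 10 were open. Esrra, an estrogen-related receptor, had 18.7 and 19.4, Yy1 18.4 and 16.6, and Tfb2m, a mitochondrial transcription factor, 13.0 and 12.8. Nrf1 itself had 7.61 and 4.96, and Gabpb1 5.29 and 4.62. The 6 testis forms of other energy enzymes were all open, with a median of 0.839 and 0.923 (0.881 ± 0.060). Slc25a31, the germ cell ADP/ATP carrier, had 8.04 and 7.99, and Pdha2, an autosomal pyruvate dehydrogenase subunit, 2.58 and 2.43. Cyct, Gapdhs (0.667 and 0.661), Ldhc (0.446 and 0.430) and Pgk2 (0.382 and 0.310) were below the median of all genes, and so was Cox8c, whereas Cox6b2 and Cox7b2 were above it.

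The markers of cell types bear on which cells gave the signal. All 6 markers of spermatogonia and meiotic germ cells were open, with a median of 7.86 and 7.52, led by Dazl with 10.1 and 10.7. All 4 Sertoli markers (median 2.38 and 2.70), all 4 Leydig markers (0.704 and 0.698) and both markers of peritubular myoid cells (1.54 and 1.41) were open too. Cdh5 of endothelium had 0.425 and 0.438 and Ptprc of leukocytes 0.323 and 0.196, while Pecam1, Adgre1, Cd68 and the erythroid genes Hba-a1 and Alas2 had none. No spermatid marker was open in both libraries (Tnp1 had 0.227 in replicate 2 alone), nor was either epididymis marker. The part of each cell type in the promoter values of the set was not tested. In all, replicate 1 had 101172 peaks and replicate 2 had 117359, and the read depth is unknown.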

How the data were processed

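DNase-seq was measured in 2 libraries of 14-day testis. The authors deposited, per library, 2 peak lists with a signal column, footprints and an FDR track of the cut rate, in mm10 coordinates, per the file headers and the deposited text descriptions. The deposited p-value column of the footprints holds 0.01 in every row, and the track lists only bases with a q-value below 0.05, so both were used for positions alone. The signal values set by the authors are whole multiples of a smallest step per library (100% of values below 1 within 0.05 steps), 0.00538 in replicate 1 and 0.00377 in replicate 2. Aligner and peak caller: not given in the sources used here. Of 85 gene IDs that matched the symbols, 84 were kept, 1 per symbol. A promoter value was the highest signal of the longer list within 1000 bp of any start, or 0. Motif windows lay at the start nearest to the highest peak, and positions count from 0 at that start. Named were all tissue forms and their paralogs, the 3 highest and 3 lowest genes per complex, genes without a peak, the 5 with the largest difference between libraries, up to 6 sharing a peak, and on the pathway lists the 3 highest and those without a peak in both libraries; other genes were named after their values were seen, and some results are not reported here. Members and lists were chosen with earlier results of these data known. Alternatives were windows of 500 and 2500 bp, the 5′ end alone, the shorter list, the nearest start and each library left out. The scripts (Python 3.11.15, pandas 2.3.3, pysam 0.24.0) were tested on simulated data. No test between groups was possible, and intervals for depth cannot be given.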

Additional observations from a re-analysis of the deposited data

How the results depend on the processing

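The means of the 8 pair differences kept their sign under the alternatives run. Medians of complexes moved by more than their spread in 7 cases. With windows of 500 bp complex I had 6.47. With the 5′ end alone complex I had 6.58, complex IV 3.70 and complex V 7.06. With peaks given to the nearest start complex I had 5.97, complex III 4.93 and complex V 7.04. The difference Ndufa4l2 minus Ndufa4 was -0.47 with windows of 2500 bp, which take in a further peak, and its sign then differed between the 2 libraries. The count of open promoters was 81 with 500 bp, 82 with 2500 bp, where Cox6a2 gained a peak of 0.708, 79 with the 5′ end alone, 80 in the shorter list and 72 with the nearest start. Among these alternatives the share of all protein-coding genes was computed for the shorter list alone. The value of a gene was identical for 82, 82, 80, 83 and 68 of the 84 genes under these 5 alternatives. With either library left out complex V lay between 7.51 and 9.18 and complex I between 6.96 and 7.05. With 2 libraries these are the values of each library and say nothing of stability. No paired analysis was possible because there is 1 group. What depth limits cannot be told from signal values, and low peaks such as that of Ndufa4l2, held in 1 of the 2 shorter lists, are the least certain.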
